A study of Mus musculus with 12 samples.

Results

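The organic anion and cation transporters of the kidney were followed as 9 genes, Slc22a2, Slc22a4, Slc22a5, Slc22a6, Slc22a7, Slc22a8, Slc22a12, Slc22a13 and Slc47a1, taken by symbol from the 37681 genes of the deposited count table. All 9 genes were present in the table, and all 9 were among the 19399 genes with enough reads to be tested. RNA came from a thin outer slice of kidney cortex of untreated male C57BL/6 mice that were 18 months old. The 3 TG+ mice (43-29, 43-49 and 43-75) carry the TRACK transgene, γ-HIF1αM3, a constitutively active mutant of hypoxia-inducible factor HIF1α that is expressed in proximal tubule cells. The 3 TG- mice (43-26, 43-50 and 43-76) are wild-type littermates without it. Both kidneys of each mouse were sequenced separately, and the reads of the 2 kidneys were summed. The design asks how the level of each transporter mRNA differs between TG+ and TG- cortex.

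Proximal tubule cells take drugs, toxins and metabolic waste out of the blood across their basolateral membrane and release them into the urine across their apical membrane. SLC22 proteins carry the organic anions and cations in, some in exchange for dicarboxylates and others along the membrane potential, and SLC47 proteins (MATE) exchange cations for protons at the apical side. Other SLC22 members work in the opposite direction and recover urate and carnitine from the filtrate.

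The summed reads per mouse lay between 48052131 and 60506785. Levels are given as normalized CPM, reads scaled to the library size after TMM normalization, and as mean ± SD over 3 mice. The genotype was checked with 2 mRNAs known to be induced by HIF1α. Ndufa4l2 had 202 ± 37.6 CPM in TG+ and 3.22 ± 0.772 CPM in TG- cortex, and Car9 had 148 ± 23.1 against 14.7 ± 2.95 CPM. Hif1a mRNA did not pass the test (log2 fold change -0.12, adjusted p = 0.343 by edgeR), but was called lower when mouse 43-49 was left out. Whether the Hif1a count includes reads of the transgene was not tested.

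The study's threshold asks for a fold change above 2 or below 0.5 and an adjusted p of less than 0.01. There, 1 of the 9 transporters was lower in TG+ mice (Slc22a6), beside 0.211% of all genes tested. Under scaling by library size alone it stood at -0.97 on the log2 scale and 0 of 9 were called. None was higher at that threshold by edgeR, beside 3.77% of all genes. At an adjusted p below 0.05 without a minimum fold change, 5 of 9 were lower (Slc22a5, Slc22a6, Slc22a8, Slc22a12 and Slc47a1), beside 10.9% of all genes tested and 24.1% of genes with a mean of at least 32 CPM, and the same 5 had all TG+ mice below all TG- mice, beside 20.8% of all genes. By the same criterion 1 of 9 was higher (Slc22a4), beside 15.4% of all genes and 10.6% of those of at least 32 CPM, and this gene alone among the 9 had all TG+ mice above all TG- mice, beside 23.4% of all genes. Over the 9 genes the log2 fold change had a median of -0.60, against 0.01 over all genes tested and -0.08 over the 5636 genes of at least 32 CPM. Fold changes come from edgeR's quasi-likelihood fit with Benjamini-Hochberg adjustment over the 19399 genes, and their SE from its F statistic. In whole tissue, fewer proximal tubule cells and less of an mRNA per cell cannot be told apart.

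**Figure D1:**
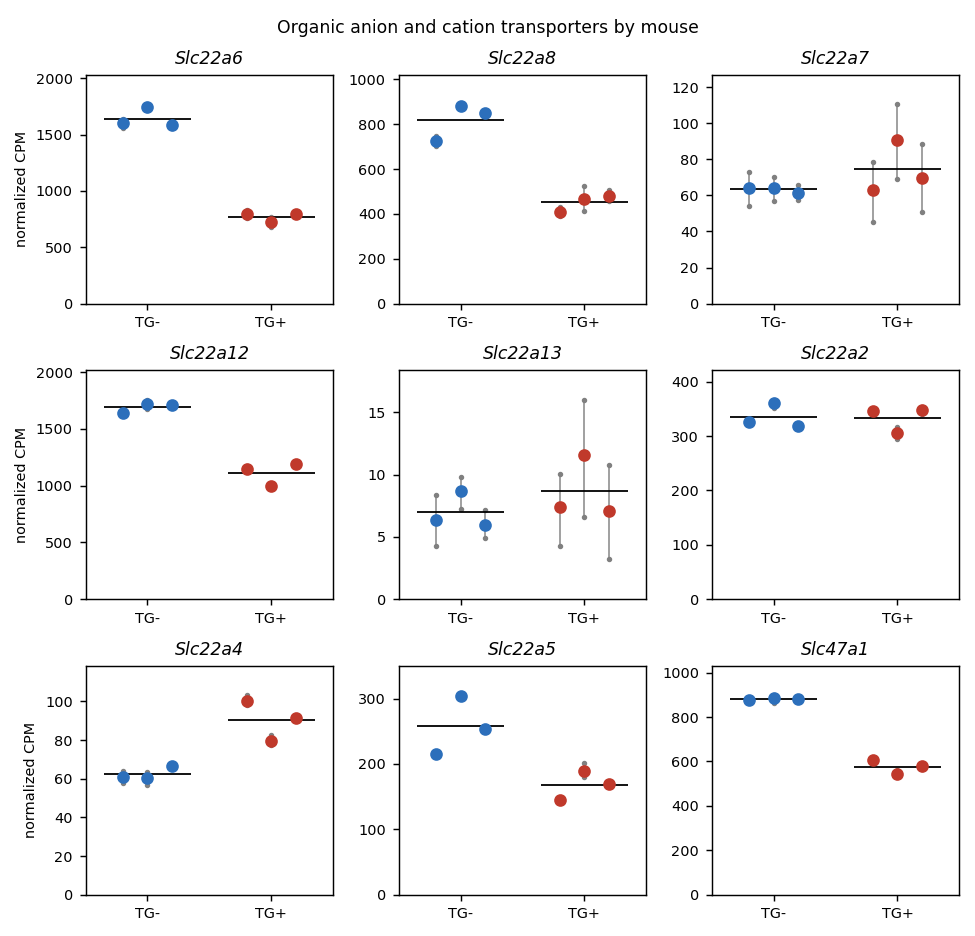
Each panel plots 1 transporter in normalized CPM (linear axis from 0) for TG- (blue) and TG+ (red) mice. Large points are mice, small grey points joined by a line are the 2 kidneys of a mouse, and black lines are the means of 3 mice. The TG+ and TG- mice do not overlap for Slc22a6, Slc22a8, Slc22a12, Slc22a4, Slc22a5 and Slc47a1, and the kidneys of a mouse lie far apart for Slc22a7 and Slc22a13.

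Slc22a6 encodes OAT1, the basolateral exchanger that brings para-aminohippurate and other small organic anions into the proximal tubule cell in return for α-ketoglutarate. Its level was 794, 721 and 797 CPM in the TG+ mice 43-29, 43-49 and 43-75, and 1598, 1747 and 1581 CPM in the TG- mice 43-26, 43-50 and 43-76. Every TG+ mouse was far below every TG- mouse, with little spread within either genotype. The mRNA fell by 1.09 on the log2 scale (SE 0.07, adjusted p = 4.82e-05 by edgeR), a 2.13-fold lower level in TG+ cortex.

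Slc22a8 encodes OAT3, the second basolateral organic anion exchanger of these cells, which takes bulkier anions such as steroid sulfates. Its level was 410.2, 466 and 482 CPM in the same TG+ mice and 725, 882 and 850 CPM in the TG- mice, again without overlap. The mRNA fell by 0.86 on the log2 scale (SE 0.09, adjusted p = 6.78e-04 by edgeR), short of the minimum fold of the study's threshold. Within a mouse, the log2 ratio of Slc22a6 to Slc22a8 CPM was 0.77 ± 0.17 in TG+ and 1.01 ± 0.12 in TG- mice, with overlap. The difference of these ratios was -0.24 (SE 0.12, 2-sided exact permutation p = 0.2, adjusted p = 0.2 over the 4 pairs of transporters compared).

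Both genes lie on the plus strand of chromosome 19, Slc22a8 (ENSMUSG00000063796) at chr19:8591254-8611835 and Slc22a6 (ENSMUSG00000024650) at chr19:8618039-8628299 in the GENCODE annotation of GRCm38, with 6204 bases between them. The labels name build mm9 for the deposited files, so these positions come from the annotation by Ensembl identifier and not from the files. The 250 bases before the RefSeq start of Slc22a6 (GRCm38.p6, chr19:8617746-8617995, plus strand) are shown because this is the member that passed the study's threshold, with capitals reserved for letters found by a motif search.

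Slc22a6 promoter: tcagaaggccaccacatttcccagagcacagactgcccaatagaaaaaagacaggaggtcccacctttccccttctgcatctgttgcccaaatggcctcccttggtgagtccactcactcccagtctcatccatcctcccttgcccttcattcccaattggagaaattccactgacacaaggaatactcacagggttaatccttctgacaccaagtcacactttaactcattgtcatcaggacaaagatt

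The search covered ACGTG and GCGTG, the core letters bound by HIF, CAAAGTC, a short form of the HNF4 site, and TATAAA, on both strands. Among the 32851 RefSeq promoter windows of the mouse, cut to the same 250 bases, 16.6% hold ACGTG, 28.2% hold GCGTG, 3.84% hold CAAAGTC and 12.4% hold TATAAA. Windows were given for 7 of the 9 genes, all but Slc22a7 and Slc47a1. None of the 4 motifs was found in the windows of Slc22a6, Slc22a8, Slc22a12, Slc22a2 and Slc22a13, so the Slc22a6 window holds no capitals. The window before the RefSeq start of Slc22a8 lies inside an exon of a longer Slc22a8 transcript in GENCODE and is not shown. A match of letters is a description of the sequence and shows no binding, and no match says only that these letters are not in this window.

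Slc22a7 encodes OAT2, a carrier of cGMP, nucleobases and other anions. Its level was 63.2, 90.6 and 69.9 CPM in the TG+ mice and 64.0, 64.3 and 61.6 CPM in the TG- mice. The groups overlapped, because mouse 43-29 lay among the TG- mice, and the TG+ values were spread more widely (SD 14.3 against 1.51 CPM). The log2 fold change was 0.24, with a 95% interval of -0.05 to 0.52 (adjusted p = 0.192 by edgeR), and was 0.07 without mouse 43-49.

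Slc22a12 encodes the apical urate exchanger URAT1 (Rst in the mouse), which recovers urate from the filtrate. Its level was 1148, 997 and 1194 CPM in the TG+ mice and 1640.0, 1721 and 1710.0 CPM in the TG- mice, with no overlap. The mRNA fell by 0.60 on the log2 scale (SE 0.08, adjusted p = 0.0013 by edgeR), a 1.52-fold lower level. The gene (ENSMUSG00000061742, chr19:6535845-6543032, minus strand) overlaps Nrxn2 on the opposite strand, and 682 of its 2263 exon bases are exon bases of Nrxn2 too. The sources used here do not state that reads were counted by strand, so reads of the overlap cannot be assigned to either gene. Nrxn2 had 428 ± 30.8 CPM in TG+ and 665 ± 22.6 CPM in TG- cortex, a log2 fold change of -0.63 (SE 0.07, adjusted p = 6.12e-04 by edgeR) beside the -0.60 of Slc22a12.

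Slc22a13 encodes OAT10, an exchanger of urate and nicotinate. It was the least abundant of the 9 genes, at 7.42, 11.6 and 7.09 CPM in the TG+ mice and 6.38, 8.70 and 6.00 CPM in the TG- mice, from 293 to 655 reads per mouse. The groups overlapped, and the log2 fold change was 0.31, with a 95% interval of -0.20 to 0.81 (adjusted p = 0.34 by edgeR). It was 0.04 without mouse 43-49 and 0.49 without mouse 43-50. Its span (chr9:119192974-119209098, minus strand) lies within that of Slc22a14 on the same strand without a shared exon base. Of its 51-base words, the length of the reads, 35.7% also occur in the pseudogene Slc22a13b-ps, which had at most 0.143 CPM in any mouse. Within a mouse, the log2 ratio of Slc22a12 to Slc22a13 CPM was 7.03 ± 0.53 in TG+ and 7.93 ± 0.27 in TG- mice. These ratios did not overlap, and they differed by -0.90 (SE 0.34, 2-sided exact permutation p = 0.1, the smallest that 3 against 3 mice allow, adjusted p = 0.133), or by -0.60 without mouse 43-49.

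Among the cation transporters, Slc22a2 encodes OCT2, which takes metformin, creatinine and monoamines into the cell from the blood. Its level was 346, 306 and 348 CPM in the TG+ mice and 326, 361 and 319 CPM in the TG- mice. The groups overlapped, with 1 TG+ mouse below and 1 TG- mouse above the range of the other genotype, and the log2 fold change was -0.01, with a 95% interval of -0.18 to 0.16 (adjusted p = 0.943 by edgeR).

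Slc47a1 encodes MATE1, the proton exchanger that passes the same kind of cations on into the urine. Its level was 605, 546 and 578 CPM in the TG+ mice and 879, 884 and 883 CPM in the TG- mice, with no overlap and with very close TG- values (SD 2.67 CPM). The mRNA fell by 0.61 on the log2 scale (SE 0.06, adjusted p = 3.11e-04 by edgeR), a 1.53-fold lower level. Between the uptake and the exit step of cation secretion, the log2 ratio of Slc22a2 to Slc47a1 CPM was -0.79 ± 0.05 in TG+ and -1.40 ± 0.09 in TG- mice. The ratio was 0.61 higher in TG+ mice (SE 0.06, no overlap, 2-sided exact permutation p = 0.1, the smallest possible, adjusted p = 0.133 over the 4 pairs). Slc47a2, the next gene 541 bases away, had too few reads to be tested.

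Slc22a4 and Slc22a5 encode OCTN1, a carrier of ergothioneine and other cations, and OCTN2, the sodium-dependent transporter that recovers carnitine from the filtrate. Slc22a4 had 100.4, 79.8 and 91.6 CPM in the TG+ mice and 61.1, 60.5 and 66.6 CPM in the TG- mice, so that every TG+ mouse was above every TG- mouse. The mRNA increased by 0.53 on the log2 scale (SE 0.09, adjusted p = 0.0046 by edgeR), a 1.44-fold higher level.

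Slc22a5 had 146, 190 and 169 CPM in the TG+ mice and 216, 303 and 254 CPM in the TG- mice, and moved the other way. The mRNA fell by 0.62 on the log2 scale (SE 0.14, adjusted p = 0.0146 by edgeR), with the largest SE among the 5 transporters that were lower (SD 44.0 CPM over the TG- mice, around a mean of 258 CPM). The log2 ratio of Slc22a4 to Slc22a5 CPM was -0.54, -1.25 and -0.88 in the TG+ mice and -1.82, -2.33 and -1.93 in the TG- mice. The ratios differed by 1.14 (SE 0.26, 2-sided exact permutation p = 0.1, the smallest possible, adjusted p = 0.133), the widest shift among the 4 pairs compared. They could not overlap, because every TG+ mouse was above every TG- mouse for Slc22a4 and below for Slc22a5. The separation and this p therefore follow from the 2 genes and are no further test.

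Both genes lie on the minus strand of chromosome 11, Slc22a4 at chr11:53983123-54028090 and Slc22a5 at chr11:53864542-53891660 (GRCm38, GENCODE), on either side of Slc22a21. Of the 51-base words of Slc22a5, 25.8% also occur in other genes, chiefly Slc22a21, and 2.48% of those of Slc22a4. Slc22a21 itself had 2.66 ± 0.193 CPM in TG+ and 2.27 ± 0.0825 CPM in TG- cortex. The promoter windows of this pair are shown because these 2 members of 1 cluster moved in opposite directions. They are taken from chr11:54028105-54028354 for Slc22a4 and chr11:53891704-53891953 for Slc22a5 (GRCm38.p6, minus strand), with motif letters in capitals.

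Slc22a4 promoter: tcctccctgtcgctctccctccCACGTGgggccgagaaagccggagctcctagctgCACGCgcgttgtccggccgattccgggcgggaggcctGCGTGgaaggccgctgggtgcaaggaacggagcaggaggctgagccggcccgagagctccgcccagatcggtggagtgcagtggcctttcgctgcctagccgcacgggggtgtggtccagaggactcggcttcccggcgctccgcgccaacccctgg

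Slc22a5 promoter: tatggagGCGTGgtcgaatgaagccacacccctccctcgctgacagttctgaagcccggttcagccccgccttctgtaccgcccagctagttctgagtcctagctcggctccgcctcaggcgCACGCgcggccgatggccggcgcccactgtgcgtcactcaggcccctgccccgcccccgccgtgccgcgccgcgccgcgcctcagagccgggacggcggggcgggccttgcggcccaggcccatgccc

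Both windows are rich in G and C, 71.2% in Slc22a4 and 73.6% in Slc22a5 against a median of 52.4% over all windows, and hold 26 and 30 CG pairs against a median of 6. The Slc22a6 window holds 48.4% G and C and no CG pair. In Slc22a4, ACGTG and its other strand overlap in 1 palindrome, CACGTG, beginning 228 bases before the start, and GCGTG was found on 1 strand or the other at 194 and 157 bases before it. In Slc22a5, GCGTG was found on 1 strand or the other at 243 and 128 bases before the start. HIF core letters were found in both of these windows, ACGTG in that of Slc22a4 alone, while the windows of Slc22a6, Slc22a8 and Slc22a12 held none. The shares over all windows were not computed for windows as rich in CG pairs. A part of HIF in these changes was not tested.

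**Figure D2:**
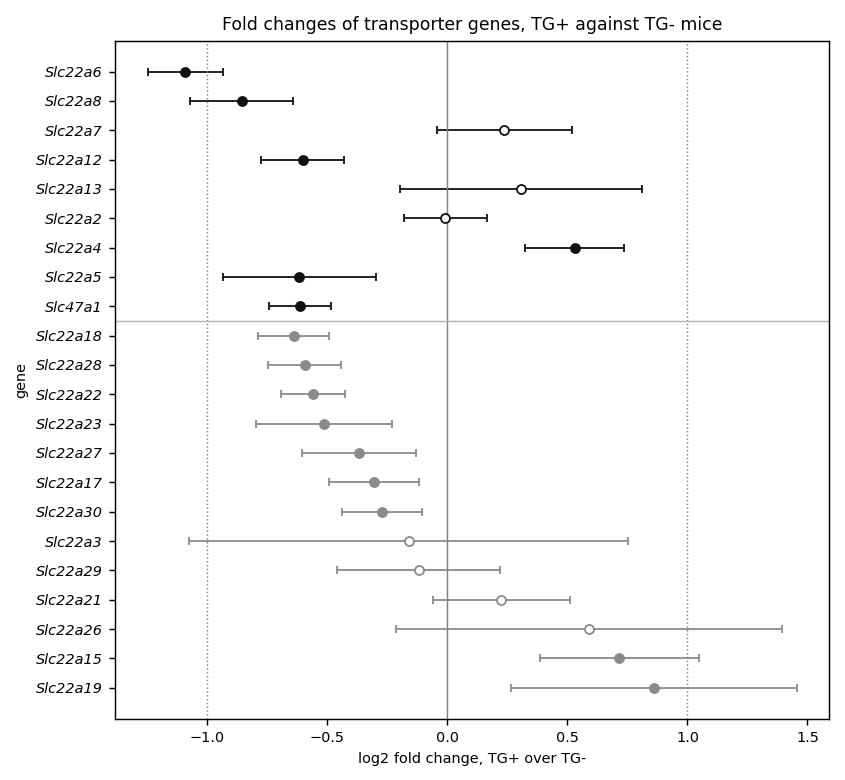
Points are log2 fold changes of TG+ over TG- mice (x axis) for the 9 transporters (black, top) and 13 of the 14 other SLC22 genes tested (grey, sorted), and bars are 95% intervals from the edgeR fit. Filled points have an adjusted p below 0.05, and dotted lines mark a fold of 2 in either direction. Slc22a6 at -1.09 is the only point beyond a dotted line.

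Levels per length were compared with the deposited RPKM, as the mean of the 2 kidneys. In TG- cortex Slc22a6 (412 ± 22.2 RPKM) and Slc22a12 (404 ± 9.995 RPKM) stood at the top with overlapping mice. Slc22a8 followed at 120.5 ± 12.1, Slc22a2 at 88.2 ± 5.63, Slc47a1 at 73.1 ± 0.198 and Slc22a5 at 55.9 ± 9.48 RPKM, with no overlap between neighbours in this order. Slc22a4 (18.1 ± 1.03 RPKM) and Slc22a7 (17.9 ± 0.325 RPKM) overlapped, and Slc22a13 was lowest at 3.58 ± 0.705 RPKM.

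In TG+ cortex the order was different. Slc22a12 (260 ± 24.5 RPKM) stood above Slc22a6 (189 ± 10.6 RPKM) with no overlap, and Slc22a2 (85.4 ± 6.23 RPKM) above Slc22a8 (65.2 ± 5.64 RPKM), also with no overlap. Slc47a1 was at 46.6 ± 2.26 and Slc22a5 at 35.6 ± 4.81 RPKM. Slc22a4 (25.5 ± 2.86 RPKM) and Slc22a7 (20.4 ± 3.98 RPKM) overlapped again, and Slc22a13 was at 4.24 ± 1.20 RPKM. The place of Slc22a12 in both orders, and its share below, include the reads of the bases it shares with Nrxn2, and its order against Slc22a6 was not computed without them.

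The sum over the 9 genes was 732 ± 37.5 RPKM in TG+ and 1194 ± 53.2 RPKM in TG- cortex. The highest TG+ mouse reached 767 and the lowest TG- mouse 1146 RPKM. Slc22a6 made up 34.5 ± 0.857% of the sum in TG- and 25.9 ± 0.464% in TG+ mice, and Slc22a2 7.38 ± 0.249% and 11.7 ± 0.345%, in both cases without overlap between the genotypes. The share of Slc22a12 was 33.9 ± 0.951% in TG- and 35.4 ± 1.61% in TG+ mice, with overlap, although its level had fallen. These shares sum to the whole, so a fall of 1 gene raises the others.

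**Figure D3:**
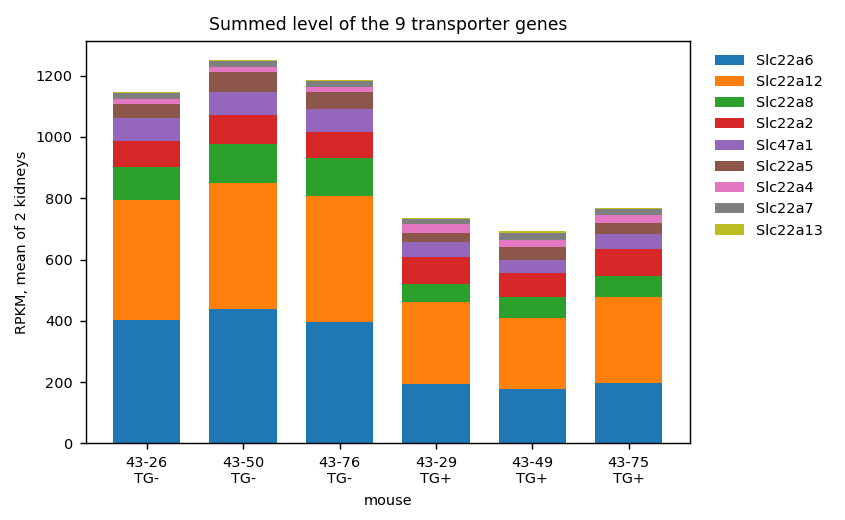
Each bar is 1 mouse, stacked from the RPKM of the 9 transporters (mean of 2 kidneys, linear axis from 0). The 3 TG- bars reach 1146 to 1251 RPKM and the 3 TG+ bars 693 to 767 RPKM, and the Slc22a6 block at the bottom shrinks most in height.

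The 2 kidneys of a mouse serve as a check of how far a value depends on the slice that was cut. For 7 of the 9 transporters no mouse had kidneys that differed by more than 0.5 on the log2 scale. Slc22a6 differed by at most 0.16 and Slc22a12 by at most 0.07. Slc22a7 and Slc22a13 were different, and exceeded 0.5 in 3 and in 5 of the 6 mice. Among the 12290 genes of at least 5 CPM, 2.52% exceeded it in any mouse and 0.423% in 3 or more mice.

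Slc22a13 had 10.8 CPM in kidney 1 and 3.25 CPM in kidney 2 of mouse 43-75, and 4.26 and 10.1 CPM in those of mouse 43-29. The log2 ratio of kidney 1 to kidney 2 was -1.24, 1.27 and 1.73 in the TG+ mice and 0.96, 0.45 and -0.54 in the TG- mice (43-29, 43-49, 43-75, then 43-26, 43-50, 43-76). For Slc22a7 it was -0.80, 0.68, 0.81, 0.43, 0.30 and -0.19 in the same order. Both genes had their higher level in kidney 2 in mice 43-29 and 43-76 and in kidney 1 in the other 4 mice, in either genotype.

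Over the 6 mice these ratios had a Pearson r of 0.99 with each other. Umod and Slc12a1, markers of the thick ascending limb, moved with them. The Umod ratio was -0.80, 0.40, 0.46, 0.29, 0.21 and -0.02, with r of 0.97 to Slc22a7 and 0.92 to Slc22a13. Slc7a13, a marker of the S3 segment, the last stretch of the proximal tubule, had smaller ratios of at most 0.29 with r of 0.94 and 0.96. Slc22a19 and Slc22a26, named here after their values were seen, are 2 further family members with such differences, up to 0.90 and 1.52. Members with small kidney differences varied in this. The Slc22a2 ratio had r of 0.77 with that of Umod and 0.88 with that of Slc7a13, whereas Slc22a6 had -0.83 and -0.89 and Slc22a8 -0.77 and -0.91. Slc22a5 had -0.52 and -0.77, Slc22a12 -0.36 and -0.21, Slc22a4 -0.21 and -0.46, and Slc47a1 0.17 and -0.02. The r values describe 6 points that share their libraries, and the part of the slice's depth in these differences was not tested. The genotype comparison of Slc22a7 and Slc22a13 rests on levels that differed more between the kidneys than between the genotypes, in 5 and in 6 of the 6 mice.

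**Figure D4:**
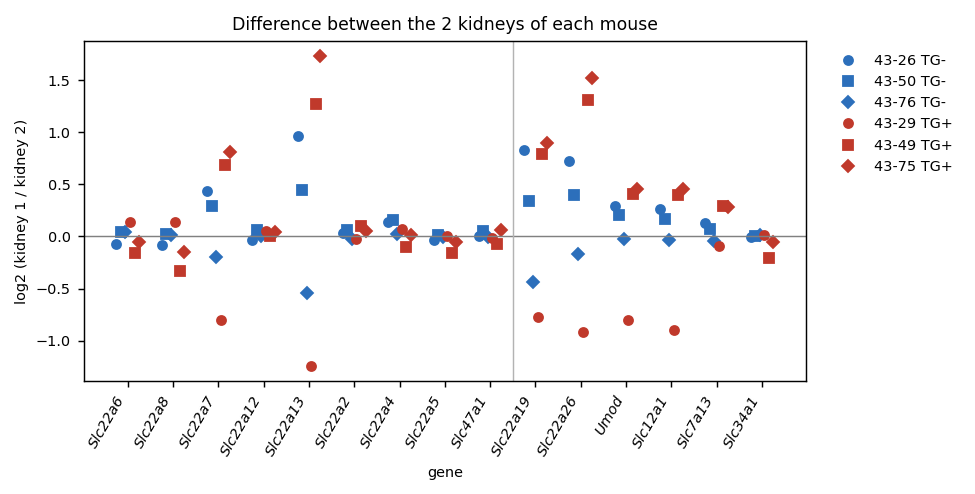
The y axis is the log2 ratio of kidney 1 to kidney 2 for each of 6 mice (red TG+, blue TG-, 1 symbol per mouse) and the x axis the 9 transporters, then Slc22a19, Slc22a26 and 4 segment markers. Slc22a13 spans -1.24 to 1.73 while Slc22a12 stays within 0.07 of 0, and the same mice are high or low in Slc22a7, Slc22a19, Slc22a26, Umod and Slc12a1.

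Of the 18 other SLC22 and SLC47 genes, 14 could be tested. At an adjusted p below 0.05, 7 were lower in TG+ mice and 2 were higher. Beside them stand 10.9% lower and 15.4% higher among all genes tested, and 24.1% and 10.6% among genes of at least 32 CPM. None of the 14 reached the study's threshold by edgeR, and their median log2 fold change was -0.23. The lower genes numbered 3 without the TG- mouse 43-50, and 4 without 43-75 or 43-76 or under scaling by library size alone, and the higher ones 1 without 43-49, 43-26, 43-50 or 43-76. Slc22a18, the most abundant of them, fell from 495 ± 34.1 to 317 ± 8.61 CPM (log2 fold change -0.64, adjusted p = 4.85e-04). Slc22a22, a prostaglandin carrier of the mouse kidney, was lower by -0.56 and Slc22a23 by -0.51 on the log2 scale. Slc22a28 was lower by -0.59, but 53.3% of its 51-base words occur in its near copies. Slc22a17 and Slc22a19 had log2 fold changes of -0.31 and 0.86 (adjusted p = 0.0273 and 0.0428 by edgeR), the latter with kidneys as far apart as described above. The shares of all genes given in this paragraph are those to set beside the lists below.

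OAT1 and OAT3 depend on dicarboxylates held in the cell and on the sodium gradient. Of 7 such partners, 2 were lower and none higher at an adjusted p below 0.05 by edgeR (median log2 fold change -0.09). Slc13a3, the basolateral dicarboxylate carrier NaDC3 that supplies the exchange ion, had 619 ± 115 CPM in TG+ and 983 ± 148 CPM in TG- cortex, a fall of 0.67 on the log2 scale (adjusted p = 0.0152). Slc9a3, the sodium-proton exchanger NHE3, fell by 0.49 (adjusted p = 0.0083).

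Of 12 efflux pumps of either membrane and urate exit carriers, 6 were lower and 2 higher (median log2 fold change -0.14), with 1 higher without the TG+ mouse 43-75 or with kidney 1 only, and 4 higher with DESeq2, under scaling by library size alone or with each kidney as its own library. The apical pumps Abcc2 (MRP2) fell by 0.47 and Abcg2 (BCRP) by 0.45, and the phosphate and urate carriers Slc17a1 and Slc17a3 by 0.33 and 0.31 on the log2 scale. The basolateral Abcc5 (MRP5) was lower by -0.25, and Abcc6, a less abundant gene of that family, by -0.98 (20.2 ± 2.24 CPM in TG- and 10.2 ± 0.811 CPM in TG+ cortex, adjusted p = 5.50e-04). Abcb1b, a P-glycoprotein gene, rose from 6.83 ± 1.71 to 17.1 ± 3.64 CPM and passed the study's threshold (log2 fold change 1.33, adjusted p = 0.0033 by edgeR). Of 13 OATP, bile salt and peptide carriers, 3 were lower and 2 higher (median -0.11), beside 24.1% and 10.6% of all genes of at least 32 CPM. Under scaling by library size alone 2 were lower and 4 higher. Slco1a1, Slco1a6 and Slco3a1 fell by 0.40, 0.37 and 0.50, whereas the bile acid carrier Slc10a2 rose by 0.64 and the prostaglandin carrier Slco2a1 by 0.42.

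Of 12 transcription factors and PDZ scaffold genes tied to these transporters, 4 were lower and 2 higher (median -0.31), with 2 lower without 43-29, 43-49 or 43-50 and 1 without 43-76. Scaling by library size alone left 1 lower and 2 higher, while 7 were lower with DESeq2 and 8 with each kidney as its own library. Hnf4a, whose product binds many proximal tubule promoters, had 1135 ± 133 CPM in TG+ and 1428 ± 120 CPM in TG- cortex, a log2 fold change of -0.33 (adjusted p = 0.0395). Slc9a3r1, Pdzk1ip1 and Ppara were lower by -0.36, -0.25 and -0.55, and Slc9a3r2 was higher by 0.50. Pdzk1, the scaffold that holds URAT1 at the apical membrane, had a log2 fold change of -0.16 (adjusted p = 0.242).

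Several of these transporters are under androgen control in the mouse, so 7 androgen-dependent kidney genes were set beside them. At an adjusted p below 0.05, 3 were lower and none higher by edgeR (median -0.13). Cyp4b1 fell by 1.07 on the log2 scale, past the study's threshold, Slc7a13 by 0.75 and Slco1a1 by 0.40, whereas Kap, the most abundant, had 16180.0 ± 1669 and 17070.0 ± 357 CPM (log2 fold change -0.08, adjusted p = 0.528), and Odc1 and Gusb had log2 fold changes of 0.00 and 0.02.

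Markers of cell types were read in the same mice. Of 20 proximal tubule markers, 9 were lower and none higher by edgeR (median -0.28). Their sum was 40220.0 to 42590.0 CPM in TG+ and 49650.0 to 53620.0 CPM in TG- mice, and none of them was at 0. Kap alone had means of 16180.0 CPM in TG+ and 17070.0 CPM in TG- mice within this sum. The markers of smallest p were Acsm2 (log2 fold change -0.85), Ass1 (-0.77), the phosphate carrier Slc34a1 (-0.76), the water channel Aqp1 (-0.64) and the endocytic receptor Lrp2 (-0.46). Slc22a6 stood at -1.09 and Slc22a8 at -0.86. The other 11 markers did not pass, among them Kap (-0.08), Gatm and Fbp1 (both 0.01) and Pck1 (0.52), and 17 of the 20 were below 0. Of the 5 S1 segment markers none passed an adjusted p of 0.05 by edgeR, with Gatm, the most abundant, at 0.01, whereas 1 was lower with DESeq2, with each kidney as its own library or with kidney 1 only. Of 5 S3 markers 4 were lower and 1 higher, among them Slc7a13 (-0.75), Acy3 (-0.42), Slc3a1 (-0.28) and Atp11a (-0.23), with Slc5a10 higher by 1.09 and past the study's threshold. The lower S3 markers numbered 2 without 43-29, 43-75 or 43-76, under scaling by library size alone, or with kidney 1 only.

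Of 12 markers of other nephron segments 1 was lower (Aqp3, -0.19) and none higher, and Umod had 2019 ± 467 and 1936 ± 78.3 CPM. The lower call was lost without any 1 of 43-29, 43-75, 43-26, 43-50 and 43-76, with 2 higher without 43-26, and the calls turned to 0 lower and 4 higher under scaling by library size alone. Markers of cells outside the tubule were higher in TG+ mice: 13 of 18 immune, 9 of 9 endothelial and 7 of 9 stromal genes at an adjusted p below 0.05, with medians of 1.03, 0.66 and 0.66. The stromal count was 2 without 43-75 and 3 without 43-49 or 43-76. Their summed levels were 1228 to 1887, 826 to 889 and 330 to 433 CPM in TG+ against 386 to 449, 480.2 to 627 and 208 to 248 CPM in TG- mice, most of the immune sum being Igkc (1002 ± 252 against 208 ± 28.5 CPM). Of 12 tubule injury genes 6 were higher, among them Havcr1, which rose from 2.94 ± 2.14 to 20.4 ± 7.01 CPM. The part of these cells in the transporter differences was not tested.

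**Figure D5:**
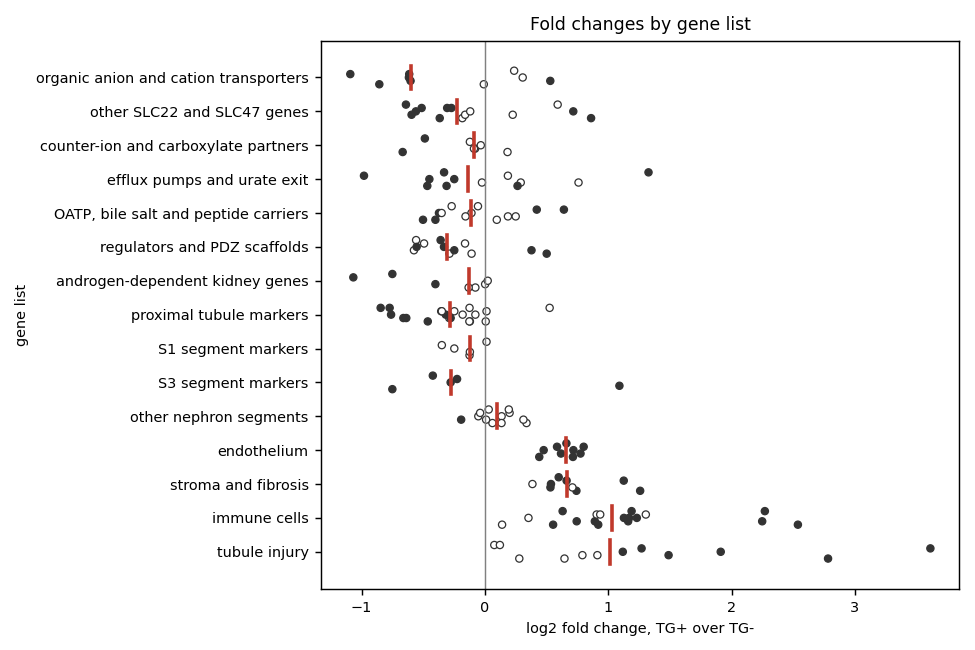
Each point is a gene, placed by its log2 fold change of TG+ over TG- mice (x axis) in its list (y axis). Filled points have an adjusted p below 0.05 and red bars are list medians. The transporters have a median of -0.60, the proximal tubule markers -0.28 and the immune markers 1.03.

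Over the 12 libraries, the genes most like Slc22a6 among 5628 genes of at least 32 CPM outside the 9 were Fam151a, Galnt11, Acsm2, Slc22a22 and Acot11, with Pearson r of the log2 CPM between 0.994 and 0.996. These r describe libraries that fall into the 2 genotypes, with 2 libraries from each mouse. Their log2 fold changes were -0.95, -0.51, -0.85, -0.56 and -0.83.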

How the data were processed

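RNA from kidney cortex slices of 3 TG+ and 3 TG- mice was prepared with the TruSeq kit and sequenced by the authors as 51-bp single-end reads, with 2 libraries per mouse. The authors analysed them mainly with the Tuxedo tools, on build mm9 by the submitters' processing notes, and deposited for each library the read count per Ensembl gene without normalization. The authors also deposited RPKM, computed after 1 was added to each count, which were used here only for levels per length. Other columns of the deposited table (log2 RPKM, group means, the authors' fold changes, p-values and q-values) were not used. The annotation release and the handling of strand are not given in the sources used here.

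Counts of the 2 kidneys were summed per mouse. In R 4.3.3, edgeR 4.0.16 and limma 3.58.1 served to filter genes (filterByExpr), to scale them (TMM) and to run the quasi-likelihood test, and p-values were adjusted by the Benjamini-Hochberg method across the 19399 genes left. The procedure was tested on simulated data. Ratios of 4 pairs of transporters were compared by a 2-sided exact permutation test over the 20 splits of 3 against 3 mice, whose smallest p is 0.1, adjusted over the 4 pairs. Totals per mouse were 48052131 to 60506785 reads. Mice of the same genotype had a biological coefficient of variation of 0.114, and kidneys of the same mouse one of 0.0421.

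The 9 genes, the companion lists and the tests were chosen with earlier results of these data known. Named companion genes were taken from those past the study's threshold, at most 5 per list by smallest p among those with an adjusted p below 0.05 and at least 32 CPM in 1 genotype, and the most abundant, and a few genes of the lists are not reported here. Slc22a19, Slc12a1, Abcc6, Pdzk1, Odc1, Gusb, Nrxn2, Slc22a21, Slc22a26, Fbp1 and Pck1 were added after their values were seen. Symbols and positions came from GENCODE M21 (GRCm38) by Ensembl identifier (32642 of 37681 genes found), and promoter windows from RefSeq (GRCm38.p6). Alternatives were DESeq2 1.42.0, library-size and upper-quartile scaling, kidney 1 or kidney 2 alone, the 12 libraries taken singly, all genes with a read, a replicate block and leaving out each mouse.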

Additional observations from a re-analysis of the deposited data

How the results depend on the processing

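Slc22a6 was the gene called lower at the study's threshold under each alternative except scaling by library size alone, under which 0 members were called and its log2 fold change was -0.97. That scaling moved the median of all genes from 0.01 to 0.13, and relative to that median Slc22a6 stood at -1.10 with either scaling. Leaving out any mouse left 1 member lower at the threshold. At an adjusted p below 0.05, 5 members were lower and 1 higher under every alternative, apart from the replicate block, which gave 2 higher, adding Slc22a13 (log2 fold change 0.29, adjusted p = 0.0432). Under the block, 2 S1 markers were lower where 0 were reported, and of the other nephron segments 0 were lower and 3 higher. The block used the pairs of mice named in the deposited table. Their deviations from the genotype means had r of 0.307, 0.283 and -0.0599, and 2 of 3 TG+ mice correlated best with their own partner. With 3 mice per genotype, these r cannot settle whether the mice are paired. The sign of Slc22a2 reversed under scaling by library size alone (0.11), with kidney 1 only (0.005), and without the TG+ mouse 43-49 or the TG- mouse 43-50, its values without single mice ranging from -0.053 to 0.045. It passed the test under none of the alternatives (adjusted p of at least 0.222). Of the 126 values for single members under the alternatives, 121 kept their direction and side of an adjusted p of 0.05. The 4 ratios between transporters were recomputed with kidney 1 only, with kidney 2 only and without each mouse, and moved by less than the spread between mice in all 32 values, and leaving out the TG+ mouse 43-49 brought that of Slc22a12 to Slc22a13 from -0.90 to -0.60. Of 420 counts over companion lists under the alternatives, 56 moved by over 1.5 times, for the regulators between 1 and 8 genes lower where 4 were reported. Slc22a13 had the lowest depth of the 9 genes, at 293 to 655 reads per mouse, and the number of mice limits all comparisons.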
